A study of Homo sapiens with 4 samples.

Results

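The kallikrein-related peptidases KLK5, KLK6, KLK7, KLK8, KLK10, KLK11, KLK13 and KLK14 were examined after STAU1 knockdown in the human line SAS, which derives from a squamous carcinoma of the tongue. They are 8 of the 67008 genes in the deposited table, matched by symbol to their Ensembl identifiers, and they were chosen by their counts in the comparison described here, so their differences between the groups are a description and carry no test. RNA was sequenced in duplicate from control cells that carried a luciferase shRNA (Ctrl, 2 libraries) and from cells whose shRNA targeted STAU1 (shSTAU1, 2 libraries), a protein that binds double-stranded RNA and acts in RNA transport, translation and decay. The labels give all 4 libraries the genotype WT, a viral infection as treatment and an oral cancer cell line as cell type. The number of shRNA sequences, the time after infection, and whether the cells were a pool or a clone are not in the labels.

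Library totals ran from 32206655 to 36301574 counts, and 14303 genes passed a filter on low counts and were tested. The targeted gene had 8362 and 8218 counts in Ctrl and 1449 and 1467 counts in shSTAU1, a log2 fold change of -2.59 (SE 0.13, adjusted p = 0.00103 by edgeR's quasi-likelihood test with Benjamini-Hochberg adjustment). Across all tested genes 2.6% passed an adjusted p of 0.05, with 1.13% higher and 1.48% lower in shSTAU1. The source and cell line fields of the labels name C3H 10T1/2, a mouse fibroblast line, while the organism is given as human and the growth protocol gives SAS cells. All 7 epithelial markers on a list (KRT5, KRT14, KRT17, KRT6A, EPCAM, CDH1 and TP63) had reads, with summed levels from 7038 to 11220 CPM (reads of a gene per scaled library size). All 7 fibroblast markers also had reads, with summed levels from 10.2 to 22.8 CPM. Of these, COL1A1 had 221 to 663 counts and COL1A2 40 to 128 counts per library, PDGFRA and PDGFRB had at most 23, and COL3A1, DCN and LUM had at most 1. The libraries were treated as SAS cells. Nothing says that the replicates came from separate cultures, so p-values measure only the spread between these libraries, which may be technical. For 1 value in 2 libraries against 2, the smallest two-sided p of an exact permutation test is 0.333.

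Kallikrein-related peptidases are secreted serine proteases that are made as inactive precursors and activated when another protease removes a short propeptide. Their genes stand side by side on chromosome 19 and form the largest cluster of protease genes in the human genome. In stratified epithelia several of them act in a cascade in which KLK5 activates itself, KLK7 and KLK14. The active enzymes cut the adhesion proteins that hold the outermost cells together, and LEKTI, the product of SPINK5, inhibits them. The family is also known for altered expression in carcinomas.

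On GRCh38 the 8 genes lie on the minus strand of chromosome 19, from KLK5 (50943303 to 50953093) and KLK6 (50958631 to 50969673) through KLK7 (50976482 to 50984099), KLK8 (50996007 to 51002711), KLK10 (51012739 to 51020175) and KLK11 (51022216 to 51028039) to KLK13 (51056206 to 51065114) and KLK14 (51077495 to 51084245). All 8 are annotated as protein coding. Their transcripts had a GC content from 49.3% (KLK7) to 63.0% (KLK14), above the median of 47.7% of tested genes in each case. The union of their exons ran from 1189 bases (KLK14) to 3853 bases (KLK10), under the median of 4670 bases.

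The sequence upstream of a start site was available in RefSeq's table for 7 of the 8 genes, all but KLK8, with 14 start sites between them. The stretches of 150 bases nearest to the start that lie outside annotated exons are shown for KLK5, KLK6 and KLK13, the members under the adjusted p of 0.05 in the fit over all genes. They are on the minus strand of GRCh38, are written from 5′ to 3′, and capitals mark a match to a searched motif in either orientation.
KLK5, chr19:50953094-50953243: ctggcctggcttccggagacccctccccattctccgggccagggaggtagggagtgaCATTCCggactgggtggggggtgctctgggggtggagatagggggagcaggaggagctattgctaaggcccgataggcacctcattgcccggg
KLK6, chr19:50969674-50969823: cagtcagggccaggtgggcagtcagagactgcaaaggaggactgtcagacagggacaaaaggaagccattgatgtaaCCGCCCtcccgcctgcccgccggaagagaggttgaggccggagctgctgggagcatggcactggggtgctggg
KLK13, chr19:51065115-51065264: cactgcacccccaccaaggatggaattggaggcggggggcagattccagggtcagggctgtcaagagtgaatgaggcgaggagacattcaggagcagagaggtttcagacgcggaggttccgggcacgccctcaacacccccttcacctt

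In these stretches KLK5 had the letters of a TEAD site read on the opposite strand (CATTCC), KLK6 had those of a GC box (CCGCCC), and KLK13 had no match. Over the whole 250 bases before each start, the GC box (GGGCGG on either strand) was found in 9 of the members' 14 windows, from 5 of the 7 genes (KLK6, KLK7, KLK11, KLK13 and KLK14), and in 42.6% of the 35116 windows of that length before all RefSeq starts. The TEAD letters (GGAATG) were found in 4 of the 14 windows, from KLK5 and KLK14, and in 11.9% of all windows. The nuclear receptor half-site AGGTCA was found in 1 of the 14 windows, of KLK13, and in 12.1% of all windows. Some windows of the same gene overlap, so the 14 are not independent. Their GC content ran from 52.0% (KLK14) to 70.0% (KLK13), against a median of 58.0% over all windows. Outside KLK14 it was at least 58.4%. The shares were not adjusted for GC content, and its part in the matches was not tested. No member held the TATA box (TATAAA, 10.7% of windows), the AP-1 site (TGANTCA, 6.57%), the grainyhead-like site (AACNGGTT, 1.49%) or the glucocorticoid receptor half-site (AGAACA, 12.4%). Both strands were searched, and no match to one motif overlapped a match to another. The 7 genes thus shared no searched motif, and a match describes letters in these windows and not a bound site.

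All 7 of the members that passed the filter had both shSTAU1 libraries above both Ctrl libraries, and KLK11, which did not pass, had overlapping groups. Of all tested genes, 28.5% had both shSTAU1 libraries above both Ctrl libraries. In the fit over all genes KLK5, KLK6 and KLK13 were under the adjusted p of 0.05, where 2.6% of tested genes were. Since the members were chosen on this contrast, these calls only describe the choice, and KLK13 lay just inside the threshold and KLK10 just outside it. KLK8, KLK13 and KLK14 passed the filter on low counts only through their shSTAU1 libraries. The 7 fitted log2 fold changes ran from 0.70 (KLK7) to 3.01 (KLK13). In whole cultures, more cells that express a gene and more RNA per expressing cell cannot be told apart.

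**Figure D1:**
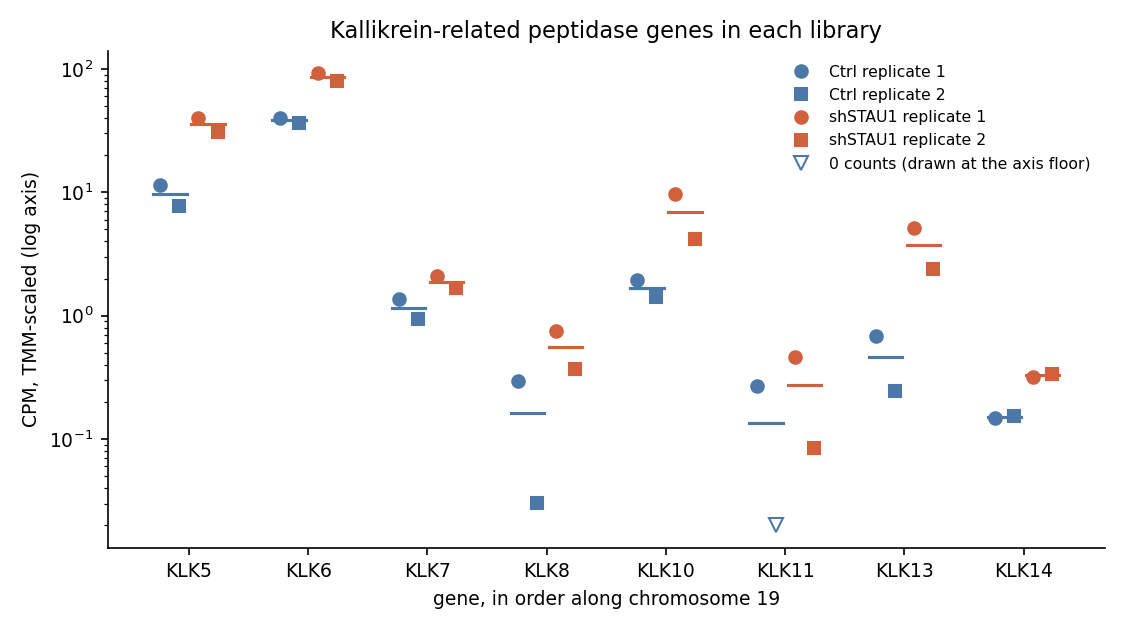
Level of each kallikrein gene in each library, in CPM, the counts relative to the library size scaled by the TMM method (log axis), with Ctrl in blue, shSTAU1 in orange and the mean of each group as a line. The shSTAU1 points lie above the Ctrl points in 7 genes, and in KLK11 they overlap, with Ctrl replicate 2 at 0 counts drawn as an open triangle.

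KLK5, the trypsin-like enzyme at the head of the skin protease cascade, had 385 and 255 counts in Ctrl and 1393 and 1094 counts in shSTAU1. Relative to the scaled library size this is 9.62 ± 2.59 CPM against 35.5 ± 6.40 CPM (SD, n = 2 each). The groups did not overlap, and the lower shSTAU1 library stood 2.70-fold above the higher Ctrl library. The fitted log2 fold change was 1.88 (SE 0.24), or 3.69-fold. Between its replicates, the higher library was 1.47-fold above the lower in Ctrl and 1.29-fold in shSTAU1.

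KLK7, the chymotrypsin-like enzyme that KLK5 activates, was present at a low level and differed least. It had 46 and 31 counts in Ctrl and 73 and 59 counts in shSTAU1, or 1.16 ± 0.298 against 1.88 ± 0.302 CPM (SD, n = 2 each). The lower shSTAU1 library exceeded the higher Ctrl library by 1.22-fold only, and the log2 fold change of 0.70 had an SE of 0.41. KLK14, the trypsin-like enzyme that can activate KLK5 in turn, had 5 counts in both Ctrl libraries, against 11 and 12 counts in shSTAU1. The groups of KLK14 were apart on very few reads, and the log2 fold change was 1.10 with an SE of 0.70.

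KLK6, a trypsin-like enzyme found in brain and in epithelial tumours, had by far the most reads of the family. It had 1346 and 1191 counts in Ctrl and 3207 and 2840 counts in shSTAU1, which is 38.2 ± 2.58 against 86.2 ± 8.31 CPM (SD, n = 2 each). The replicates of each group lay within 1.15-fold of each other, the tightest among the members with more than 100 counts per library in shSTAU1. The log2 fold change was 1.18 (SE 0.15), or 2.26-fold, and each pair of 1 shSTAU1 and 1 Ctrl library gave a ratio from 2.01 to 2.53. KLK6 was therefore the member whose size of difference depended least on which libraries were set against each other, apart from KLK14.

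KLK13, another trypsin-like member, had 23 and 8 counts in Ctrl and 180 and 84 counts in shSTAU1. The groups were far apart, and the members' largest log2 fold change, 3.01 (SE 0.60), or 8.05-fold, was that of KLK13. The ratio between a shSTAU1 and a Ctrl library ran from 3.48 to 21.2, since the replicates differed by 2.80-fold in Ctrl and 2.17-fold in shSTAU1. The size of the difference rested on single libraries, with a log2 fold change of 3.92 without Ctrl replicate 1, 2.46 without Ctrl replicate 2 and 2.35 without shSTAU1 replicate 1.

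KLK10, first described as a gene lost in breast cancer cells, had 66 and 46 counts in Ctrl and 335 and 149 counts in shSTAU1. Both shSTAU1 libraries were above both Ctrl libraries, but shSTAU1 replicate 1 had 2.28 times the level of replicate 2. The mean was 1.68 ± 0.394 CPM in the control cells against 6.92 ± 3.82 CPM with the STAU1 shRNA (SD, n = 2 each), and the log2 fold change was 2.04 (SE 0.44), or 4.10-fold. Without shSTAU1 replicate 1 it was 1.33.

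KLK8, a trypsin-like enzyme studied in brain and skin, had 10 and 1 counts in Ctrl and 26 and 13 counts in shSTAU1. Its Ctrl libraries differed by 9.74-fold in CPM, so the log2 fold change of 1.73 (SE 0.92) ranged from 0.90 to 4.03 when a library was left out. KLK11, also trypsin-like, had 9 and 0 counts in Ctrl and 16 and 3 counts in shSTAU1. The groups of KLK11 overlapped, and no fold change was fitted for it. A count of 0 allows up to 3 counts, so a level of KLK11 near that of shSTAU1 replicate 2 would not have been detectable in Ctrl replicate 2.

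In 7 of the 8 members, all but KLK14, the library numbered 1 was above the library numbered 2 in both groups. This held for 32.4% of all tested genes. When libraries of the same number were set against each other, the ratio of shSTAU1 to Ctrl was 3.50 and 3.98 for KLK5, 2.30 and 2.21 for KLK6, 1.53 and 1.76 for KLK7, and 2.13 and 2.22 for KLK14. For these 4 members both ratios were alike. For KLK10 the ratios were 4.90 and 3.001, for KLK13 7.56 and 9.73, and for KLK8, with 1 count in Ctrl replicate 2, 2.51 and 12.04. The labels do not say that the number marks a shared culture or day.

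**Figure D2:**
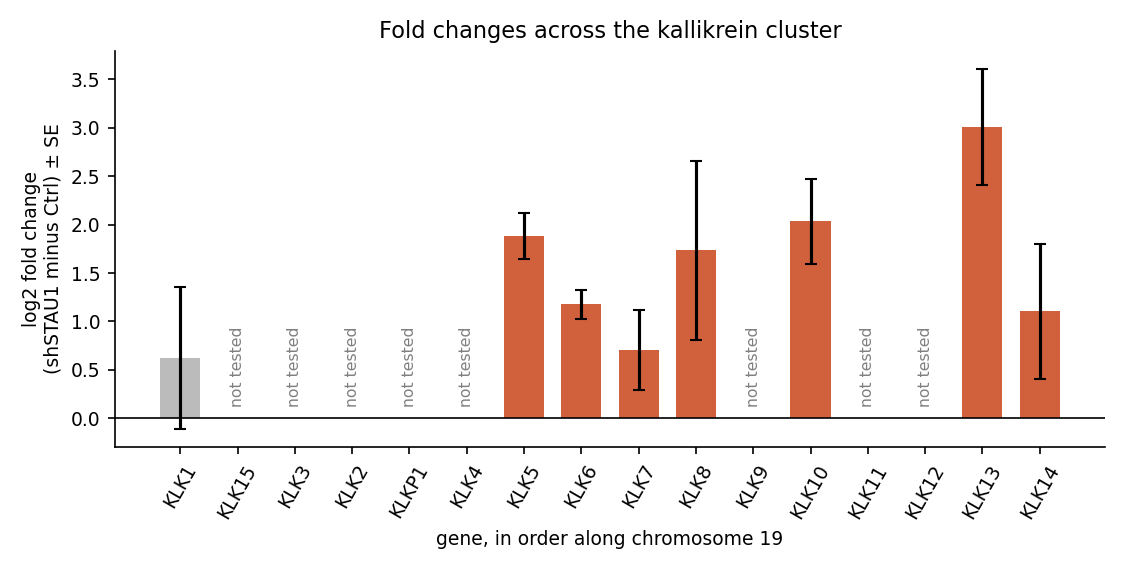
Fitted log2 fold change (shSTAU1 minus Ctrl) of the KLK genes in their order along chromosome 19, with error bars of 1 SE from edgeR. The members are in orange and KLK1 in grey, and genes under the filter on low counts are marked as not tested.

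The other 8 KLK genes of the cluster had few or no reads. KLK2, KLK9, KLK12 and KLK15 had 0 counts in all 4 libraries, and KLK3, KLK4 and the pseudogene KLKP1 had at most 3 counts in any library. KLK3 encodes prostate-specific antigen, and KLK2 encodes a related protease of the prostate. KLK1, which encodes tissue kallikrein, had 11 and 8 counts in Ctrl and 23 and 8 counts in shSTAU1. Its groups overlapped, and its log2 fold change of 0.63 (SE 0.73) had an adjusted p of 0.636 by edgeR's quasi-likelihood test. Without shSTAU1 replicate 1 the value of KLK1 turned to -0.32.

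Few reads fell on the other genes of the region. The span from KLK1 to KLK14 covers 265.1 kb, and 9 annotated genes outside the family lie within it, with at most 10 counts in any library. Counting also the 200 kb on either side, 43 genes outside the family were annotated, of which 26 had no read and 3 passed the filter. C19orf48P had 216 and 160 counts in Ctrl and 132 and 165 in shSTAU1, a log2 fold change of -0.42 (adjusted p = 0.388 by edgeR's test). The small nucleolar RNA gene SNORD88A and CTU1, which acts in tRNA modification, had log2 fold changes of -0.14 and 0.15 (adjusted p = 0.915 and 0.936 by the same test). None of the 3 passed the threshold with edgeR, DESeq2 or limma-voom, and none had an unadjusted p under 0.05 with these tools. SHANK1, named here after its values were seen, had 2 and 0 counts in Ctrl and 18 and 10 counts in shSTAU1 and was under the filter.

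Reads shared with other genes concern KLK8 most. Of its words of 50 bases, 34.1% also occur in a readthrough gene (ENSG00000269741) that spans KLK8 and KLK9 and had 0 counts in all libraries. The share was 0.554% for KLK7, 1.40% for KLK10 and 0.987% for KLK11, and 0% for KLK5, KLK6, KLK13 and KLK14. No member shared such a word with another member. KLK5, KLK6, KLK7, KLK8 and KLK10 overlap antisense genes that had at most 7 counts in any library, and without a stated strand setting reads from the 2 strands cannot be told apart.

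Added together, the 8 genes had 1890 and 1537 counts in Ctrl and 5241 and 4254 counts in shSTAU1. This is 51.6 ± 6.55 against 135.5 ± 21.3 CPM (SD, n = 2 each), a ratio of 2.63, with ratios from 2.14 to 3.21 between single libraries. KLK5 and KLK6 gave 91.6% and 94.1% of these counts in Ctrl and 87.8% and 92.5% in shSTAU1, so the sum is mostly a statement about this pair. Without KLK6 the sum went from 13.4 to 49.2 CPM, a ratio of 3.68.

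The make-up of the sum differed between the groups. KLK6 gave 71.2% (95% interval from 69.1% to 73.3%) and 77.5% (75.3% to 79.6%) of the counts in Ctrl, and 61.2% (59.9% to 62.5%) and 66.8% (65.3% to 68.2%) in shSTAU1. KLK5 gave 20.4% and 16.6% in Ctrl and 26.6% and 25.7% in shSTAU1. In either shSTAU1 library the share of KLK6 was thus below, and that of KLK5 above, its share in either Ctrl library. KLK13 gave 1.22% (0.773% to 1.82%) and 0.521% (0.225% to 1.02%) in Ctrl and 3.43% (2.96% to 3.96%) and 1.97% (1.58% to 2.44%) in shSTAU1. KLK7 went the other way, with 2.43% and 2.02% in Ctrl and 1.39% in each shSTAU1 library. These exact (Clopper-Pearson) intervals cover counting error only. The shares rest on the values that chose the members and were not tested.

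**Figure D3:**
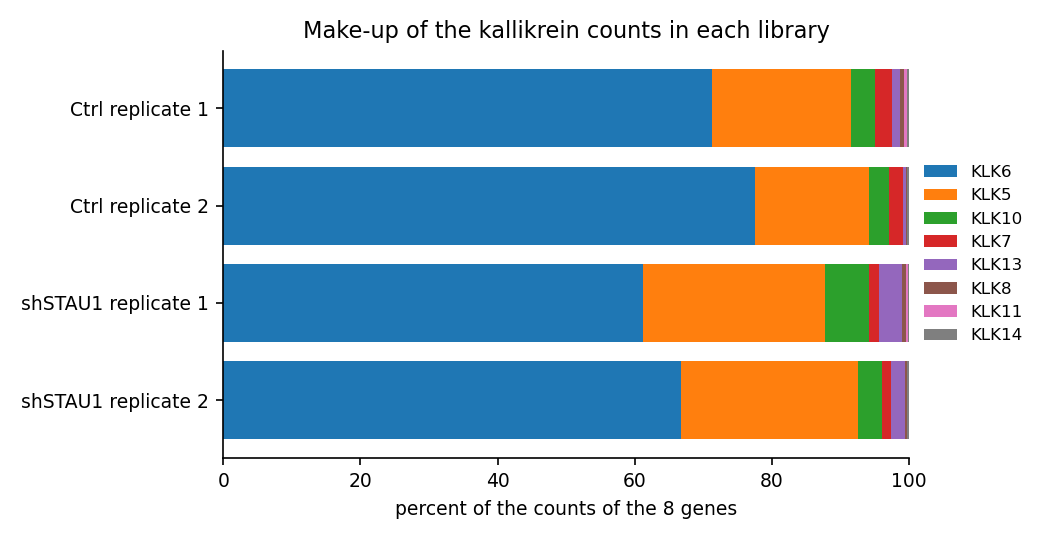
Share of each kallikrein gene in the summed counts of the 8 genes (percent), 1 bar per library. KLK6 (blue) takes 71.2% and 77.5% in the Ctrl libraries and 61.2% and 66.8% in the shSTAU1 libraries, and KLK5 (orange) takes most of the rest.

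Levels were compared between genes per kilobase of annotated exon. In Ctrl, KLK6 had 19.3 CPM per kilobase and KLK5 5.82, a ratio of 3.32 between the genes. KLK7 (0.476), KLK10 (0.437), KLK13 (0.231), KLK14 (0.127), KLK8 (0.0879) and KLK11 (0.0430) followed at under 1 CPM per kilobase. KLK6 was above KLK5, KLK5 above KLK7, and KLK10 above KLK13 in every Ctrl library, while the other neighbours in this order overlapped. The libraries were made with a kit that captures exons, so levels between genes also depend on how well each gene is captured.

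In shSTAU1 the order changed in the middle. KLK6 had 43.6 CPM per kilobase and KLK5 21.5, followed by KLK13 (1.88), KLK10 (1.80), KLK7 (0.774), KLK8 (0.299), KLK14 (0.276) and KLK11 (0.0875). KLK13 and KLK10 overlapped, as did KLK8 and KLK14, and the other neighbours did not. Among all tested genes, KLK6 stood above 86.1% in Ctrl and 93.9% in shSTAU1. KLK5 stood above 62.5% and 86.6%, KLK13 above 10.8% and 40.3%, KLK10 above 17.5% and 39.5%, and KLK7 above 18.4% and 26.0%. By exon length KLK13 and KLK10 thus stood above KLK7 in shSTAU1, and both remained below KLK5. The place of KLK10 depended on the length used. Per kilobase of coding sequence, the mean of KLK10 was above that of KLK7 already in Ctrl (2.03 against 1.52 CPM per kilobase), and in shSTAU1 KLK10 (8.36) was above KLK13 (3.29) and KLK7 (2.48). KLK13 was below KLK7 in Ctrl (0.405) and above it in shSTAU1 by either length.

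**Figure D4:**
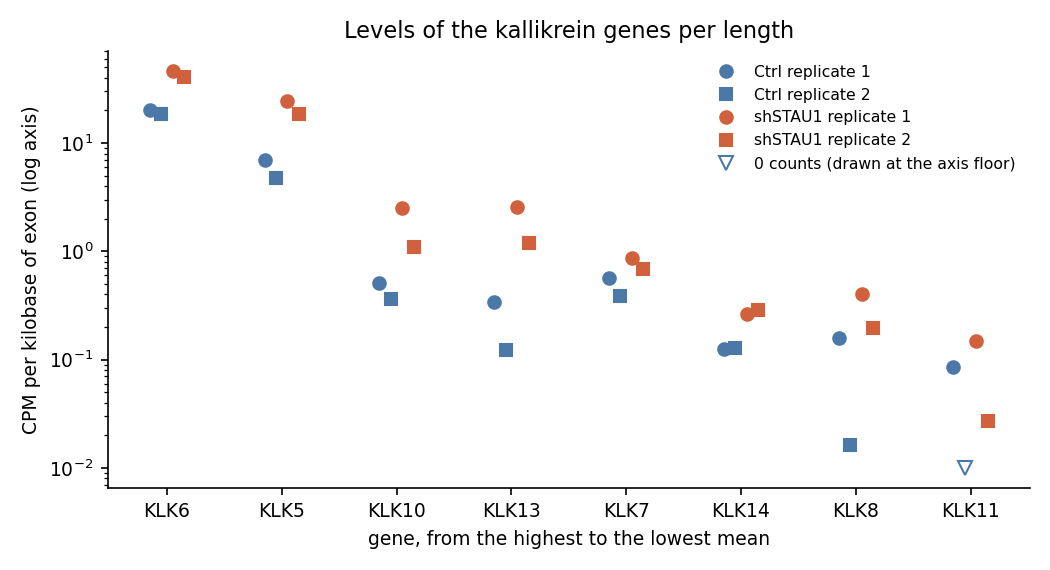
Level of each kallikrein gene per kilobase of annotated exon in each library (CPM per kilobase, log axis), ordered by the mean of the 4 libraries, with Ctrl in blue and shSTAU1 in orange. KLK6 and KLK5 stand above the other members in both groups, and KLK13 and KLK10 are above KLK7 in shSTAU1 but not in Ctrl, an order that by coding length holds for KLK13 and not for KLK10.

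Most of the listed inhibitors of the family had no read, and the counts of SPINK5 were lower in both shSTAU1 libraries without passing the threshold. Of 9 listed inhibitors, 5 had no read and 3 were tested, of which none passed with edgeR. Among the 3, 1, SPINK5, had an unadjusted p under 0.05 with edgeR, as had 3509 of all 14303 tested genes. SPINK5, which encodes the inhibitor LEKTI of KLK5, KLK7 and KLK14, had 544 and 772 counts in Ctrl and 99 and 267 counts in shSTAU1. The groups did not overlap, and the level was 19.9 ± 5.23 against 5.20 ± 3.33 CPM (SD, n = 2 each). Its log2 fold change was -1.93 (SE 0.43, adjusted p = 0.0596 by edgeR's quasi-likelihood test). It passed the threshold with DESeq2 (adjusted p = 2.29e-05) and with limma-voom (adjusted p = 0.0492), and its adjusted p was 0.15 with edgeR without a filter. The log2 fold change of SPINK5 was -1.39 without shSTAU1 replicate 1 and -2.81 without shSTAU1 replicate 2. It was -2.18 without Ctrl replicate 1 and -1.63 without Ctrl replicate 2. With 1 library left in a group, the fit takes its spread from the other group alone. SLPI, the secretory leukocyte protease inhibitor, had 34, 46, 67 and 75 counts in the order Ctrl then shSTAU1, a log2 fold change of 0.74 (adjusted p = 0.285 by edgeR). A2M, which encodes alpha-2-macroglobulin, had 93, 43, 246 and 65 counts with overlapping groups (log2 fold change 1.12, adjusted p = 0.311 by edgeR). The log2 fold change of A2M was 1.78 without shSTAU1 replicate 2 and turned to -0.14 without shSTAU1 replicate 1.

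Of 9 listed proteases that can activate kallikreins and their inhibitors, 6 were tested and none passed with edgeR. Among the 6, 1, PLAU, had an unadjusted p under 0.05 with edgeR, as had 3509 of all 14303 tested genes. PLAU, which encodes urokinase, had 2389 and 1969 counts in Ctrl and 1673 and 1285 counts in shSTAU1, a log2 fold change of -0.64 (adjusted p = 0.0888 by edgeR and 0.0203 by DESeq2). ST14, which encodes the membrane protease matriptase, had 4245, 3698, 4114 and 2999 counts, with overlapping groups (log2 fold change -0.24, adjusted p = 0.445 by edgeR). SPINT2, a matriptase inhibitor, had a log2 fold change of 0.26 (adjusted p = 0.284 by edgeR). Without shSTAU1 replicate 1 the log2 fold changes were -0.84 for PLAU, -0.48 for ST14 and -0.64 for SPINT1, the last a matriptase inhibitor gene. Without shSTAU1 replicate 2 they were -0.46, -0.03 and -0.21 in the same order.

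The genes of adhesion proteins that kallikreins cut in the outer skin had at most 2 counts in any library. DSG1, encoding desmoglein 1, and CDSN, encoding corneodesmosin, had 0 counts in all libraries, and DSC1, encoding desmocollin 1, had 2 counts in Ctrl replicate 1 and 0 elsewhere. Of 10 listed substrates and receptors, 5 were tested and none passed with edgeR. Among the 5, 2, FLG and F2RL1, had an unadjusted p under 0.05 with edgeR, as had 3509 of all 14303 tested genes. FLG, which encodes filaggrin, had 1548 and 1767 counts in Ctrl and 1197 and 847 counts in shSTAU1, a log2 fold change of -0.78 (adjusted p = 0.0765 by edgeR and 0.00751 by DESeq2). F2RL1, the receptor PAR2 that KLK5 and KLK14 can activate, is named here after its values were seen. It had 1485 and 1254 counts in Ctrl and 1127 and 987 counts in shSTAU1 (log2 fold change -0.45, adjusted p = 0.141 by edgeR). The thrombin receptor gene F2R and CDH1, encoding E-cadherin, had overlapping groups and log2 fold changes of -0.28 and -0.29 (adjusted p = 0.363 and 0.51 by edgeR). Without shSTAU1 replicate 1 the log2 fold changes were -1.05 for FLG, -0.55 for F2RL1, -0.53 for F2R and -0.73 for CDH1. Without shSTAU1 replicate 2 they were -0.55, -0.36, -0.07 and 0.05 in the same order. Such a fit takes its spread from the other group alone, so only effect sizes are given.

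Several KLK genes respond to steroid hormones, retinoids or vitamin D, and 9 nuclear receptor genes were examined for that reason. Of the 7 tested, 4 had a fitted log2 fold change above 0, as had 7211 of all 14303 tested genes. Among these 4, 1 passed, RARG, the main retinoic acid receptor of skin, where 2.6% of all tested genes passed. RARG, RARA and THRB, 3 of the 7, had an unadjusted p under 0.05 with edgeR, as had 3509 of all 14303 tested genes. RARA, named here after its values were seen, had 349 and 304 counts in Ctrl and 508 and 470 counts in shSTAU1 (log2 fold change 0.50, adjusted p = 0.17 by edgeR). RARG had 170 and 149 counts in Ctrl and 628 and 536 counts in shSTAU1, a log2 fold change of 1.79 (SE 0.22, adjusted p = 0.021 by edgeR's quasi-likelihood test). The groups were far apart, with ratios within each group of at most 1.2. The call was lost without a filter on low counts (adjusted p = 0.0682 by edgeR). It was also lost without Ctrl replicate 1 or 2, and the fit without Ctrl replicate 1 lost the call of STAU1 too. The log2 fold change of RARG ran from 1.67 to 1.90 when a library was left out. THRB, a thyroid hormone receptor gene, had 483 and 520 counts in Ctrl and 835 and 887 counts in shSTAU1 (log2 fold change 0.70, adjusted p = 0.0679 by edgeR and 0.0181 by DESeq2). NR3C1, the glucocorticoid receptor gene, and VDR, the vitamin D receptor gene, had log2 fold changes of -0.46 and -0.002 (adjusted p = 0.257 and 0.997 by edgeR). Without shSTAU1 replicate 1 the log2 fold change was 0.74 for THRB and -0.23 for NR3C1, and without shSTAU1 replicate 2 it was 0.65 and -0.72. PGR, the progesterone receptor gene, had 0 counts in all libraries.

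Over the 4 lists, 1 of the 21 tested genes of 37 listed passed the threshold, and it was higher in shSTAU1. Of all tested genes 2.6% passed, and 1.13% passed and were higher. For the 3 tested inhibitors the median log2 fold change was 0.74, which is the value of SLPI. The summed level of the inhibitor list was 20.0 and 26.3 CPM in Ctrl and 11.9 and 11.5 CPM in shSTAU1. The median was -0.19 for the activating proteases and their inhibitors, -0.45 for the substrates and receptors and 0.034 for the nuclear receptors. That of all tested genes was 0.006.

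**Figure D5:**
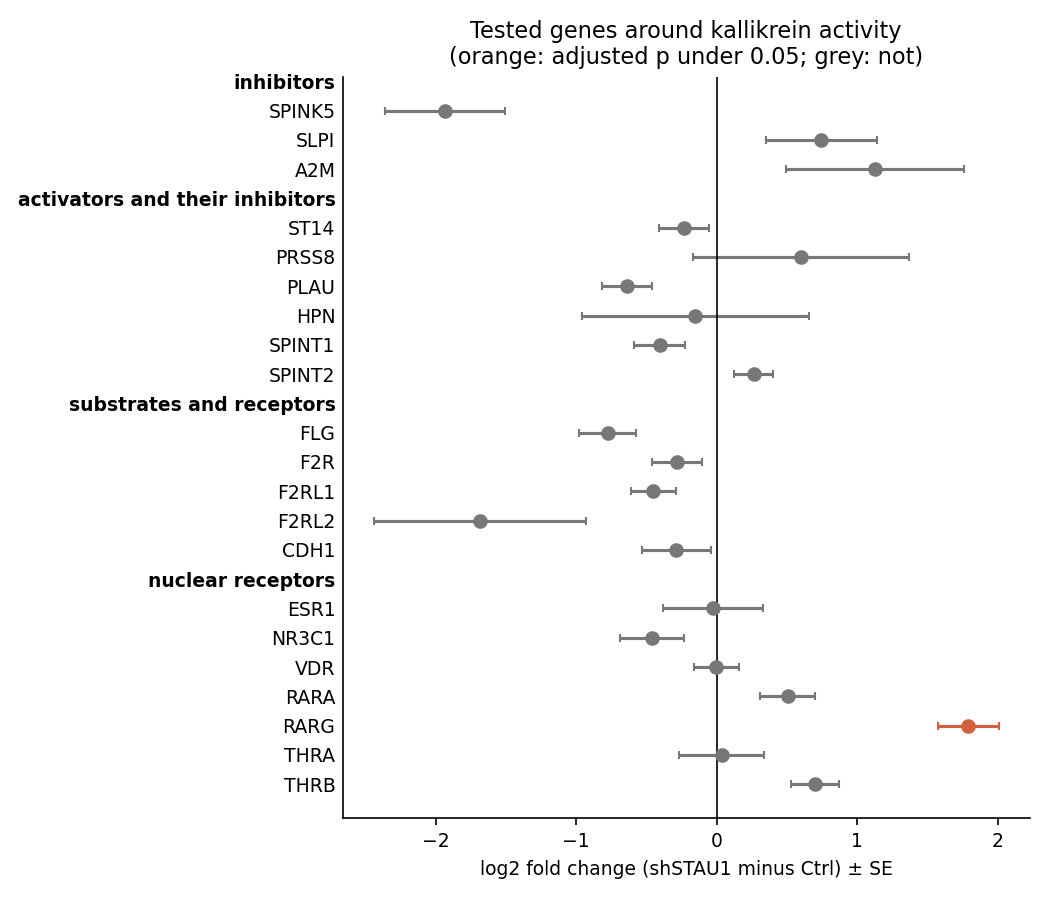
Fitted log2 fold change (shSTAU1 minus Ctrl) of the 21 tested genes of the 4 lists, with error bars of 1 SE from edgeR. RARG in orange has an adjusted p of 0.021, and the others in grey, SPINK5 at -1.93 among them, did not pass 0.05.

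KRT5, a keratin of basal epithelium, was the 1 listed epithelial marker that passed the threshold, as 2.6% of all tested genes did. The summed level of the 7 epithelial markers was 7439 and 7038 CPM in Ctrl and 11220 and 8585 CPM in shSTAU1. KRT5 itself rose, with a log2 fold change of 0.65 (adjusted p = 0.0408 by edgeR). By edgeR this call was lost with library size in place of TMM (adjusted p = 0.0523) and without a filter (adjusted p = 0.0989). It was also lost without Ctrl replicate 1 or 2, and the fit without Ctrl replicate 1 lost the call of STAU1 too. The other 6 markers did not pass the threshold, and KRT14, with groups apart, had a log2 fold change of 0.89 (adjusted p = 0.112 by edgeR). CDH1 was lower, at -0.29, and EPCAM and KRT6A were at 0.03 and 0.14, all with overlapping groups. Of the 7 fibroblast markers, 4 were tested and 1 passed the threshold, lower in shSTAU1. This was COL1A1, a collagen gene and most of the summed fibroblast level, with a log2 fold change of -1.35 (adjusted p = 0.036 by edgeR). Its call was lost without a filter (adjusted p = 0.0989 by edgeR) and, like that of KRT5, without Ctrl replicate 1 or 2. COL1A2, which encodes the other chain of the same collagen and is named here after its values were seen, had higher counts in both shSTAU1 libraries, 75 and 128 against 40 and 55 in Ctrl (log2 fold change 1.01, adjusted p = 0.185 by edgeR). The summed fibroblast list was 17.9 and 22.8 CPM in Ctrl and 11.1 and 10.2 CPM in shSTAU1. The 4 leukocyte markers summed to at most 0.311 CPM in any library. The part of these markers in the kallikrein result was not tested.

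The genes whose pattern over the 4 libraries was most like that of the kallikreins were sought among 11901 genes outside the family with a mean of at least 1 CPM. The measure was the Euclidean distance between the log2 CPM of a gene, centred on its mean, and the median centred log2 CPM of the 7 members, which was -0.52 and -1.18 in Ctrl and 1.13 and 0.49 in shSTAU1. The nearest genes were TSTD1 (distance 0.108), DOC2A (0.211), FTH1P10 (0.27), PINLYP (0.306) and ID2 (0.339). The members themselves lay at distances from 0.317 (KLK5) to 1.37 (KLK13). The 5 genes were picked by this distance, so their distances cannot be set against those of the members.

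TSTD1, a sulfurtransferase gene, had 175 and 104 counts in Ctrl and 559 and 338 counts in shSTAU1. ID2, which encodes an inhibitor of basic helix-loop-helix factors, had 48, 22, 130 and 75 counts in the same order. In both genes, as in KLK5, the library numbered 1 was the higher of each group. FTH1P10 is a processed pseudogene of the ferritin heavy chain gene, and its counts may hold reads of that gene. A likeness over 4 libraries is a description of the libraries.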

How the data were processed

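RNA-sequencing counts per gene were analysed from 2 Ctrl and 2 shSTAU1 libraries, made from total RNA with an exome capture kit. The authors deposited the counts as whole numbers without normalization. The submitters' processing notes name Partek and hg38, while aligner, counting tool, strandedness and annotation release are not given in the sources used here. Positions, lengths and GC content came from GENCODE 29, which holds 58516 of the genes and 99.9% of the counts, and upstream sequences from RefSeq's table for GRCh38.p14. The members and gene lists were chosen with earlier results of these data known, and 1 listed gene is not reported here. Named were the members, all other KLK genes, listed genes past the threshold and up to 3 of each list by mean CPM, tested genes within 200 kb, STAU1, and the 5 genes nearest to the members' pattern.

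Duplicates differed beyond sampling noise (chi-square of 16.7 per degree of freedom in Ctrl and 39.7 in shSTAU1), and each library was kept as 1 replicate. In R 4.3.3, edgeR 4.0.16 was used with filterByExpr, TMM scaling, the quasi-likelihood test and Benjamini-Hochberg adjustment over 14303 genes, with a threshold of 0.05. The biological coefficient of variation was 19.1%. The fits were also run on simulated counts with known fold changes. These counts had less spread between replicates than the data, so they do not show how the fits behave at the spread seen here. Alternatives were DESeq2 1.42.0, limma-voom 3.58.1, no filter, scaling by library size, the replicate number as a block, a correction for length and GC content (mgcv 1.9.3) with and without the block, an adjusted p of 0.10, a fold of 1.5 with an unadjusted p of 0.05, the ratio of mean CPM, coding length in place of exon length, and leaving out each library.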

Additional observations from a re-analysis of the deposited data

How the results depend on the processing

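The number of genes past the threshold was 372, of which 161 were higher. It was 1449 (773 higher) with DESeq2, 11 without a filter, 1585 at an adjusted p of 0.10, 2098 by a fold of 1.5 with an unadjusted p under 0.05, and from 0 to 2780 when a library was left out. The 0 was that of edgeR without Ctrl replicate 1, where 1502 genes had an unadjusted p under 0.05. With library size alone 132 of 404 calls were higher, and with the length and GC correction 164 of 318. Of the kallikreins, 3 passed, KLK5, KLK6 and KLK13. The number was 0 with edgeR without a filter, where 4 members had an unadjusted p under 0.05, as had 3582 of all 24804 genes. It also changed when a library was left out. Since the members were chosen on this contrast, none of these numbers tests them. KLK13 was lost with library size alone and with limma-voom, and KLK10 was gained with DESeq2. The median log2 fold change of the tested kallikreins, the value of KLK8, was 1.73, from 1.13 to 2.18 when a library was left out and from 1.45 to 1.90 otherwise. No member that passed the filter changed sign, and the sign of KLK11, which was under the filter, was not followed. Of the pathway genes, 1 passed. The number was 5 with DESeq2, at an adjusted p of 0.10 and by the fold criterion, and 2 with limma-voom. It was 0 with edgeR without a filter, where 7 had an unadjusted p under 0.05, as had 3582 of all 24804 genes. It also changed when a library was left out. The ratio of KLK6 to KLK5 per length in Ctrl was 3.32 by exon length, 4.77 by coding length and from 2.93 to 3.91 when a library was left out. A lone library of a group was assumed to vary like the other group.

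The replicate numbers were shared between the groups, and the deviations of same-numbered libraries correlated at 0.271. The deposited column names also begin with this number, but no label says that it marks a shared culture or day. With only 2 pairs and no stated meaning, the numbers were not treated as pairing. A replicate block in the fit gave 4087 genes (2208 higher), 12 pathway genes (FLG, F2R, F2RL1, CDH1, SPINK5, A2M, PLAU, SPINT1, NR3C1, RARA, RARG and THRB) and 4 kallikreins, with KLK10 added. The block together with the correction for length and GC gave 3904 genes (2403 higher) and 10 pathway genes.

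No gene passed the threshold in a fit in which its sign turned. KLK1 ran from -0.32 to 1.19 in log2 fold change when a library was left out, A2M from -0.14 to 1.78, PRSS8 from -1.07 to 1.34, HPN from -0.91 to 0.65, CDH1 from -0.73 to 0.048, ESR1 from -0.45 to 0.30, VDR from -0.057 to 0.056 and THRA from -0.37 to 0.35. With the length and GC correction ESR1 was 0.081 and VDR 0.0654, and with the block added they were 0.042 and 0.0646. THRA was -0.016 with library size alone, -0.012 with limma-voom and -0.0021 with the block. The cause was not tested. At this depth the members with under 30 counts in Ctrl, KLK8, KLK11, KLK13 and KLK14, are limited by counting error.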
